A study of Mus musculus with 26 samples.

Results

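Colon tissue of standard-diet mice at day 43 of AOM–DSS was compared with colon tissue at day 22, using the 3 day 43 and the 3 day 22 samples whose titles name the standard diet, 6 of the 26 samples of the series. The animals were wild-type C57BL/6J males from Taconic, about 10 weeks old at the start and all housed in cage A. Each mouse received 10 mg per kg of AOM, a carcinogen, at the start of the diet, and then DSS, a detergent-like polysaccharide that injures the colonic epithelium, in its drinking water. The day 22 samples followed 1 cycle of DSS and recovery and the day 43 samples 2 cycles, so that day, number of cycles and days on the diet cannot be told apart. Untreated standard-diet mice of cage E (day 0, n = 4) serve as a frame for the values. So do standard-diet mice of cages G, H and I after 3 cycles (day 70, n = 3). GW3965-diet mice of cage B (days 22 and 43, n = 3 each) serve in the same way. Their diet held a liver X receptor (LXR) agonist. The other samples titled GW3965 diet came from untreated mice of cage F (day 0, n = 4) and cages J, K and L after 3 cycles (day 70, n = 3). All 26 samples entered the gene tests unless a fit is said to use fewer. No label states that the 3 samples of a group are 3 animals. The paper's texts name 3 to 4 mice at each time point and, in another place, pools of 2 to 3 biological replicates sequenced as 1 sample. Whether a library is 1 animal or a pool is therefore unclear. The *P* values of single genes rest on the spread between libraries within the 8 groups of all 26 samples, not within these 6 samples alone.

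In repeated colitis the crypt epithelium is destroyed and rebuilt several times. Absorptive colonocytes and mucus-producing goblet cells are lost where the mucosa ulcerates, and stem cells driven by Wnt signals refill the crypts. Neutrophils enter on chemokines such as CXCL1 and CXCL5, and monocytes on others such as CCL7. Close to the anus the colon meets a stratified squamous epithelium built on keratin 5 and p63, a tissue that healthy colonic mucosa lacks. RNA of the study came from pieces of the distal colon, which the paper's methods place at the tumour areas. According to the paper, macroscopic tumours were absent at the earlier of the compared days. At the later day the paper describes them as present almost only in control mice, those on the standard diet. The part of tumour tissue in the changes between the days was not tested.

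Between day 22 and day 43 the standard-diet colon gained keratins and other genes of stratified epithelium by the largest factors of all lists examined, and it gained genes of neutrophils and of the chemokines that attract them. Genes of absorptive colonocytes and a part of the goblet cell genes went down over the same interval. Wnt target genes were high in 1 of the 3 day 43 samples only. These statements hold in a model without a term for the ribosomal share of each library, whereas no gene passed the test in the model that has it, as set out next.

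The day 43 libraries differed from the day 22 libraries in more than their tissue. RNA integrity numbers were 10, 9.6 and 9.8 at day 22 and 2.6, 8.4 and 7.8 at day 43. The share of counts on 88 ribosomal protein genes was 6.06, 8.87 and 6.95% at day 22 and 16.7, 14.4 and 18.6% at day 43, a mean difference of 9.25 percentage points without overlap (two-sided exact permutation *P* = 0.1, the smallest that 3 samples against 3 allow). Total counts per sample ran from 18195345 to 23848907 in 5 of the samples and reached 41522204 in day 43 replicate 1, the sample with the integrity number of 2.6. On the log2 scale this sample correlated with the other day 43 samples at 0.891 and 0.912 across genes, against 0.951 between those samples and at least 0.961 among the day 22 samples. Ribosomal share and day cannot be told apart in these 6 samples, and the part of RNA quality in the gene changes was not tested.

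**Figure D1:**
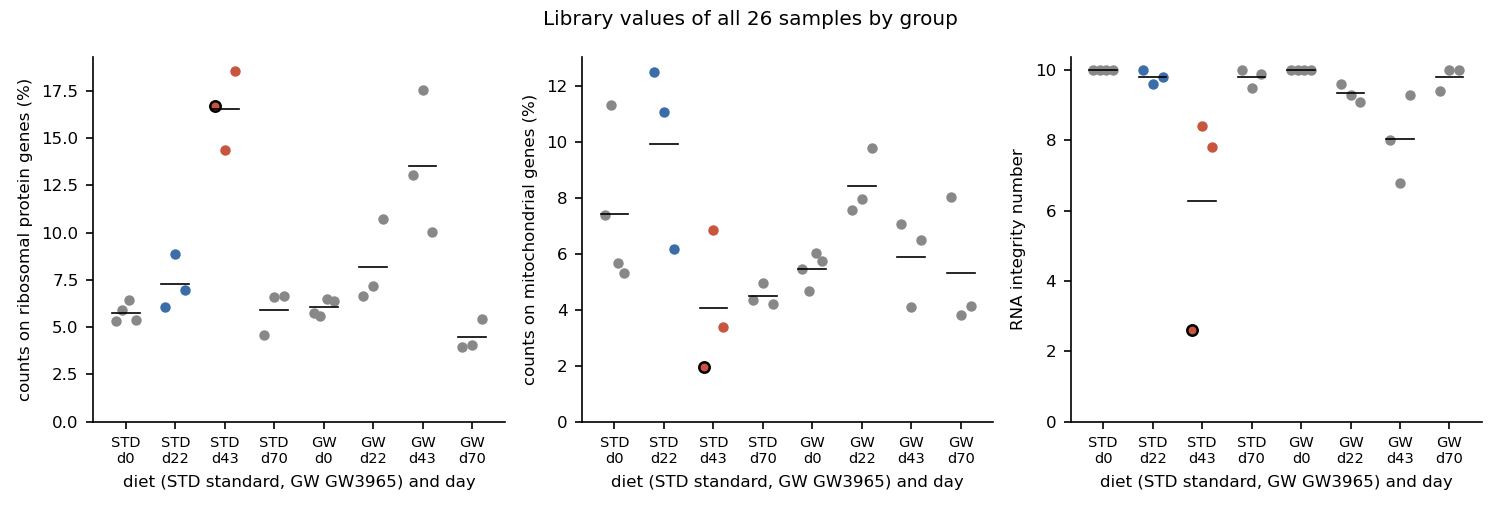
Percentage of counts on 88 ribosomal protein genes, percentage of counts on 13 mitochondrially encoded genes and RNA integrity number of all 26 samples, by diet and day; points are samples, bars are group means, blue marks day 22 and red day 43 of the standard diet, and the black ring marks day 43 replicate 1. The 3 red points of the first panel lie between 14.4 and 18.6%, above the 8.87% of the highest blue point.

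The main test asked which genes changed once the ribosomal share of each library was accounted for, measured here on the messenger RNAs of ribosomal proteins. The methods of the study instead correct for a percentage of ribosomal RNA, multiplied with diet and time, so the model used here is a different one. With that share as an additive term over all 26 samples and 8 groups, 0 of 17063 genes passed an FDR (Benjamini–Hochberg-adjusted *P*) of 0.05 in edgeR's quasi-likelihood *F*-test, 550 genes had an unadjusted *P* below 0.05, and the smallest FDR was 0.633. The likelihood ratio test of the same model called 23 genes, DESeq2 9 and limma voom 0. The term widened the errors, since the median s.e. of a log2 fold change was 0.57 with it and 0.33 without it. Without the term 5754 genes passed (33.7% of the genes tested), of which 3069 rose (18%) and 2685 fell (15.7%). Leaving out day 43 replicate 1 as well gave 2293 risen (13.4%) and 2480 fallen genes (14.5%), together 28%. A fit of the 6 samples alone, also without the term, called 1586 genes. In the paragraphs that follow, rose and fell mean FDR < 0.05 in the model without the ribosomal term, each FDR printed beside a gene comes from that model unless it is named otherwise, and each of these calls was lost in the same test with the term. Every list count is to be read against the 18% risen and 15.7% fallen of all genes. A list near these shares does not stand apart from the other genes.

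The direction of change followed the length of the transcripts. In the model without the term the median log2 fold change fell from 0.92 in the 10% of genes with the shortest transcripts, up to 1150 bases, to -0.45 in the 10% with the longest, from 6689 bases on. The Spearman correlation across 17063 genes, which are not independent replicates, was -0.32, it was -0.42 without day 43 replicate 1 and -0.41 for the same days of the GW3965 diet, and it was -0.02 with the ribosomal term. Further fits therefore removed each library's own trend on transcript length, and it called 2875 risen (16.8%) and 2204 fallen genes (12.9%), together 29.8%, or 1440 (8.44%) and 1471 (8.62%) without day 43 replicate 1. The length of each gene's longest transcript thus moved with the result, and its part in single genes was not tested beyond these fits. A gene called without the term may lose its call in these fits, which are printed for part of the named genes only.

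**Figure D2:**
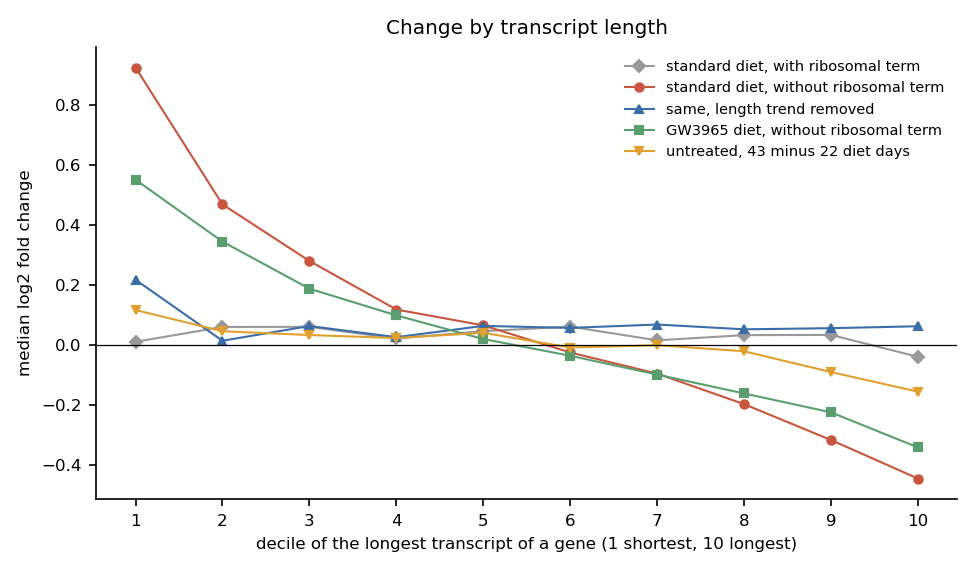
Median log2 fold change between the later and the earlier day (vertical axis) in 10 equal groups of the 17063 genes ordered by their longest transcript (horizontal axis), for 5 fits. The line without the ribosomal term runs from 0.92 to -0.45, and the line with the term stays between -0.04 and 0.06.

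Genes of stratified epithelium showed the largest rise of the 35 lists. Of 19 genes tested, 12 rose and 0 fell, where 18% and 15.7% of all genes did (median log2 fold change 5.89, against 0.05 over all genes), 12 rose without day 43 replicate 1, 10 rose without it and with the length trend removed, and 18 were higher in each day 43 sample than in any day 22 sample, a pattern that 19.7% of all genes showed. Without day 43 replicate 1 all 19 were higher, where 27.1% of all genes were. Leaving out 1 sample at a time gave 8 (without day 22 replicate 1) to 12 (without day 43 replicate 1) risen genes. With the ribosomal term the median was 8.79, and with the 3 genes that had no count at day 22 set at their lower bound it was 5.47 without the term. *Krt5*, the keratin of basal cells (chr15:101707070-101712898, minus strand, GRCm38), was at 0.752, 1.17 and 0.155 CPM in the day 22 samples and 43, 303 and 109.9 CPM in the day 43 samples (log2 fold change 7.76, s.e. 1.71, FDR = 0.00184). *Krt13*, a keratin of the upper layers of mucosal squamous epithelium, was at 1.34, 4.74 and 7.29 CPM in the day 22 samples and 259, 491 and 225 CPM in the day 43 samples (log2 fold change 6.19, s.e. 1.51, FDR = 0.00392). For both keratins the lowest day 43 sample lay far above the highest day 22 sample, and day 43 replicate 2 was the highest of all.

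*Krt6a*, a keratin induced in wounded and fast-renewing squamous epithelium, was at 0, 0.306 and 0.362 CPM in the day 22 samples and 89.4, 391 and 134 CPM in the day 43 samples (log2 fold change 9.79, s.e. 2.16, FDR = 0.00309). *Trp63*, which encodes the transcription factor of basal cells, p63, was at 0.107, 0.051 and 0.0517 CPM in the day 22 samples and 4.94, 14 and 3.27 CPM in the day 43 samples (log2 fold change 6.62, s.e. 1.61, FDR = 0.00376). *Krtdap*, a gene of keratinocyte differentiation, was at 0, 0.204 and 0.0517 CPM in the day 22 samples and 21.9, 28.2 and 52.6 CPM in the day 43 samples (log2 fold change 8.53, s.e. 2.01, FDR = 0.00303). These genes had at most 0.362 CPM at day 22 and at least 3.27 CPM in each day 43 sample. *Ly6d*, of the Ly6 surface protein family and with *Krt13* the most abundant gene of the list, had 26.7 to 107 CPM at day 22 and 238 to 523 CPM at day 43 (log2 fold change 2.38, s.e. 0.73, FDR = 0.016, not called without day 22 replicate 1 or day 43 replicate 2). *Ly6d* did not pass with the length trend removed (1.69, FDR = 0.0708), nor without day 43 replicate 1 as well (1.76, FDR = 0.117). Summed over the list the level was 41.5, 138 and 98.2 summed CPM at day 22 and 847, 2441 and 1274 at day 43, against 19.3 to 36.9 in the 4 day 0 samples and 3781 to 6505 in the 3 day 70 samples. *Krt5* itself stood at 0.128 to 1.37 CPM at day 0 and at 503 to 698 CPM at day 70, so that day 43 lay between the untreated colon and the day 70 tissue. The pieces held colonic epithelium too, as the pan-epithelial genes described further on show. In bulk tissue more cells of a type and more RNA per cell cannot be told apart, and how close to the anus each piece was cut is not given in the labels.

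**Figure D3:**
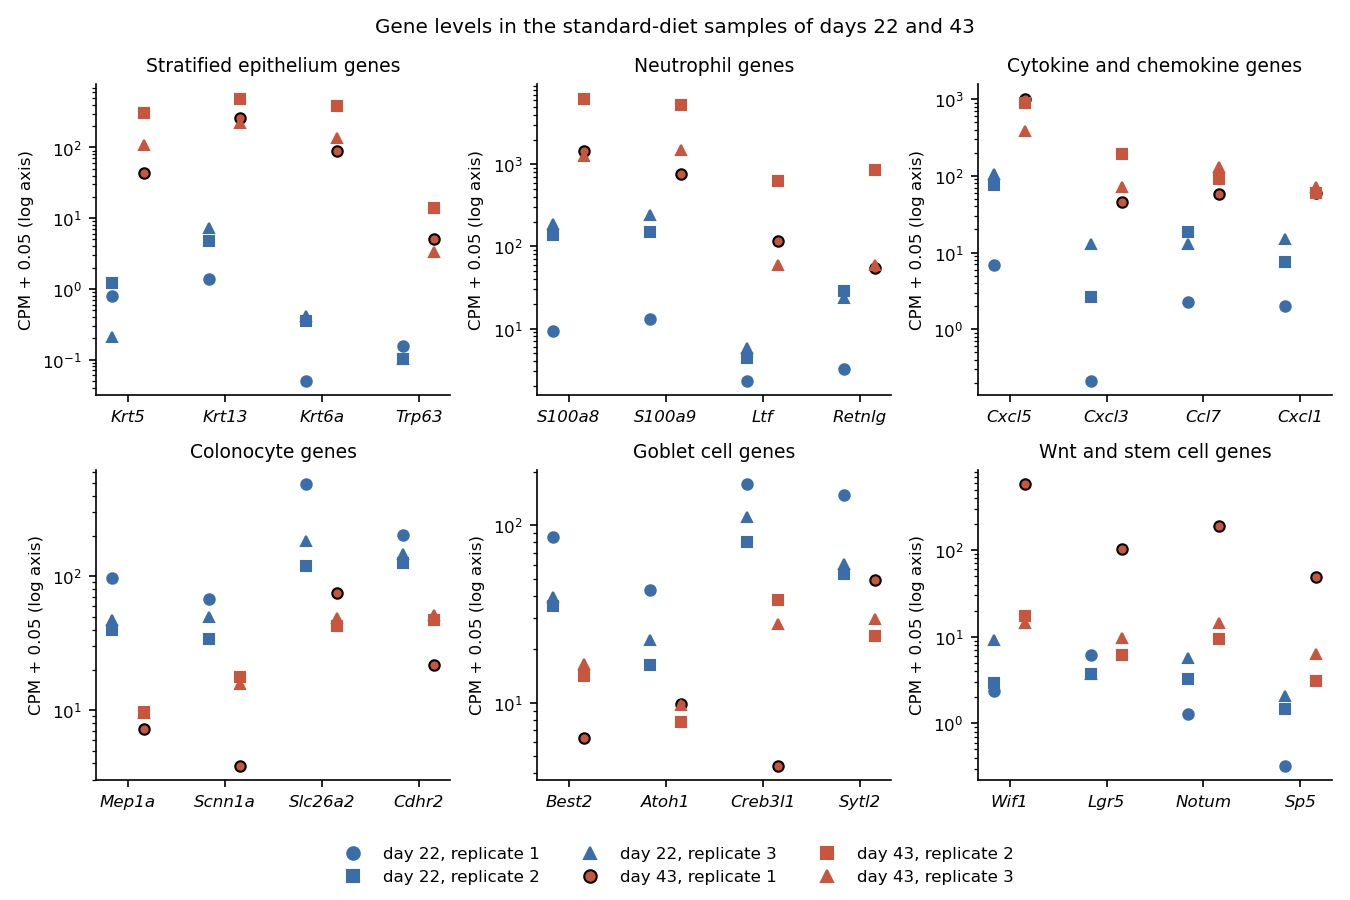
CPM plus 0.05 on a log axis for 4 genes of each of 6 lists in the 6 samples; blue is day 22, red is day 43, the marker shape gives the replicate and the black ring marks day 43 replicate 1. The keratins and neutrophil genes are higher in all 3 red samples, the colonocyte genes are lower in all 3, and the Wnt genes stand far apart only in the ringed sample.

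The next 8 genes are not on the list and were named after their values were seen, for their large factors. *Psca*, which encodes a small membrane-anchored surface protein, was at 0.0537, 0 and 0 CPM in the day 22 samples and 134, 263 and 59.4 CPM in the day 43 samples (ratio of pooled counts 6603, 95% exact counting interval 1185 to 260835, FDR = 0.000648). *Tmprss11b*, a serine protease of squamous mucosa, was at 0, 0.051 and 0 CPM in the day 22 samples and 15, 43.2 and 18.1 CPM in the day 43 samples (ratio of pooled counts 1042, 95% exact counting interval 187 to 41172, FDR = 0.001). *Calml3*, an epithelial calmodulin-like gene, had no count in the day 22 samples and 28.1, 37 and 23.6 CPM in the day 43 samples, at least 547-fold higher on a floor of 3 counts over the 3 libraries together. On the same floor the cornified envelope gene *Rptn* was at least 298-fold higher, with 7.96, 2.84 and 37.7 CPM in the day 43 samples. *Defb1*, a β-defensin gene of epithelia, was at least 256-fold higher, with 10.4, 24.9 and 6.33 CPM in the day 43 samples. None of these 3 genes had a count at day 22. *Sprr2d*, a small proline-rich protein gene of the cornified envelope, was at 0, 0 and 0.413 CPM in the day 22 samples and 14.2, 219 and 15.7 CPM in the day 43 samples (FDR = 0.00422). *Calm4*, a calmodulin-like gene of keratinocytes, was at 0.0537, 0 and 0.0517 CPM in the day 22 samples and 9.48, 4.6 and 60.6 CPM in the day 43 samples (ratio of pooled counts 487, 95% exact counting interval 135 to 4025, FDR = 0.00911), and *Teddm3* was at 0, 0 and 0.0517 CPM in the day 22 samples and 4.66, 22.1 and 10.4 CPM in the day 43 samples (ratio of pooled counts 485, 95% exact counting interval 87 to 19183, FDR = 0.00187). Of 14 small proline-rich protein genes 4 rose and 0 fell (1 and 0 without day 22 replicate 1 or day 22 replicate 2 or day 43 replicate 2 or day 43 replicate 3), and 1 rose and 0 fell with the length trend removed. Their summed level overlapped between the days and was lowest in day 43 replicate 1. It was 8309, 5264 and 6276 summed CPM at day 22 and 2095, 6292 and 6455 at day 43. Of 18 late cornified envelope genes 0 rose and 0 fell, and 16 of these had no count at day 22.

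Neutrophil genes rose next. Of 14 tested, 9 rose and 0 fell, where 18% and 15.7% of all genes did, and 10 rose without day 43 replicate 1. The median log2 fold change was 2.90, and 1.45 with the ribosomal term. With the length trend removed 6 rose and 1 fell, and 7 rose and 0 fell without replicate 1 as well. The numbers risen and fallen became 4 and 0 without day 22 replicate 1 and 5 and 0 without day 22 replicate 2 or day 43 replicate 2. *S100a8* and *S100a9*, neighbouring genes for the subunits of calprotectin, an antimicrobial protein of neutrophils, moved together. *S100a8* (chr3:90668978-90670035, plus strand, GRCm38) was at 9.24, 139 and 187 CPM in the day 22 samples and 1472, 6312 and 1251 CPM in the day 43 samples (log2 fold change 4.75, s.e. 1.04, FDR = 0.00183). *S100a9* was at 12.9, 148 and 245 CPM in the day 22 samples and 759, 5280.0 and 1505 CPM in the day 43 samples (log2 fold change 4.22, s.e. 1.05, FDR = 0.0045). Day 22 replicate 1 was more than 10 times below the other day 22 samples for both genes, and day 43 replicate 2 was the highest sample.

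*Ltf*, which encodes the iron-binding granule protein lactoferrin, was at 2.26, 4.38 and 5.68 CPM in the day 22 samples and 116, 621 and 59.2 CPM in the day 43 samples (log2 fold change 6.01, s.e. 1.25, FDR = 0.00123). *Retnlg*, a resistin-like gene of neutrophils, was at 3.17, 28.4 and 23.8 CPM in the day 22 samples and 53.8, 851 and 59.5 CPM in the day 43 samples (log2 fold change 4.12, s.e. 1.05, FDR = 0.00523, not called without day 43 replicate 2). For both genes the lowest day 43 sample was above the highest day 22 sample. The summed list level was 317, 615 and 916 summed CPM at day 22 and 2597, 13843 and 3327 at day 43, with 168 to 235 at day 0 and 1016 to 1395 at day 70, so that the day 43 samples held the highest levels of the standard-diet course.

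Cytokine and chemokine genes rose in the same samples. Of 23 tested, 12 rose and 0 fell, where 18% and 15.7% of all genes did (median log2 fold change 2.22). Without day 43 replicate 1, 14 rose. The median longest transcript of the list has 1417 bases, and with the length trend removed 8 rose and 0 fell, or 7 rose and 0 fell without replicate 1 as well. The numbers risen and fallen became 3 and 0 without day 22 replicate 1, 6 and 0 without day 22 replicate 2 or day 43 replicate 3 and 7 and 1 without day 43 replicate 2, and with the ribosomal term the median was -0.04. *Cxcl5*, an attractant of neutrophils, was at 6.88, 75.3 and 105 CPM in the day 22 samples and 1023, 896 and 392 CPM in the day 43 samples (log2 fold change 3.63, s.e. 0.85, FDR = 0.00278). *Cxcl3*, of the same family, was at 0.161, 2.55 and 12.9 CPM in the day 22 samples and 45.6, 193 and 70.7 CPM in the day 43 samples (log2 fold change 4.31, s.e. 1.17, FDR = 0.00786). Both were higher in each day 43 sample than in any day 22 sample.

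*Cxcl1*, also an attractant of neutrophils, was at 1.93, 7.49 and 15.2 CPM in the day 22 samples and 60.2, 59.1 and 72.6 CPM in the day 43 samples (log2 fold change 2.96, s.e. 0.85, FDR = 0.0106, not called without day 22 replicate 1). *Ccl7*, an attractant of monocytes, was at 2.2, 18.7 and 12.7 CPM in the day 22 samples and 57.7, 91.7 and 132 CPM in the day 43 samples (log2 fold change 3.06, s.e. 0.83, FDR = 0.00741). The day 43 samples were again above every day 22 sample, while the fold change with the ribosomal term was -0.53 for *Cxcl1* and -0.15 for *Ccl7*. *Il1b*, the gene of interleukin-1β and with *Cxcl5* the most abundant of the list, had 9.99, 88.7 and 315 CPM at day 22 and 105, 609.9 and 770.3 CPM at day 43 and did not pass (log2 fold change 1.84, FDR = 0.122). *Ppbp*, a chemokine gene of platelets that is not on the list, was at 0.269, 0.509 and 0.465 CPM in the day 22 samples and 43.5, 566 and 28.8 CPM in the day 43 samples (log2 fold change 8.98, s.e. 1.85, FDR = 0.00119).

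Among monocyte and macrophage genes, 7 rose and 0 fell of 21 tested, where 18% and 15.7% of all genes did. The median log2 fold change was 0.66, and 0.77 with the ribosomal term, and 9 rose without day 43 replicate 1. With the length trend removed 5 rose and 0 fell, and the same numbers were called without replicate 1 as well. The numbers risen and fallen became 2 and 0 without day 22 replicate 1 and 3 and 2 without day 43 replicate 2. *Arg1*, the arginase of wound-type macrophages, was at 0.86, 12.3 and 38.8 CPM in the day 22 samples and 257, 898 and 205 CPM in the day 43 samples (log2 fold change 4.71, s.e. 1.25, FDR = 0.00651). *Mrc1*, the mannose receptor of resident macrophages, was at 19.6, 31.3 and 30.5 CPM in the day 22 samples and 63.5, 78 and 60.7 CPM in the day 43 samples (log2 fold change 1.31, s.e. 0.30, FDR = 0.00213). Both genes had separate ranges. *Lyz2*, the lysozyme of myeloid cells, had 654 to 1488 CPM at day 22 and 1884 to 4253 CPM at day 43 (log2 fold change 1.46, s.e. 0.44, FDR = 0.0146, not called without day 22 replicate 1 or day 43 replicate 2). The chitinase-like gene *Chil3* had 0.86 to 4.24 CPM at day 22 and 5.2 to 40.6 CPM at day 43 (log2 fold change 2.89, s.e. 0.86, FDR = 0.0135, not called without day 22 replicate 1 or day 43 replicate 2). The fold change of *Lyz2* was 0.14 with the ribosomal term, and *Lyz2* did not pass with the length trend removed (0.95, FDR = 0.0622). Without day 43 replicate 1 as well, neither *Lyz2* (1.14, FDR = 0.0569) nor *Chil3* (2.50, FDR = 0.0621) passed.

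The antimicrobial defence list was split. Of 15 genes tested, 8 rose and 3 fell, where 18% and 15.7% of all genes did. The median log2 fold change was 1.57, and -0.10 with the ribosomal term. With the length trend removed 7 rose and 3 fell, and 5 rose and 2 fell without day 43 replicate 1 as well. *Reg3g*, a lectin that kills Gram-positive bacteria, was at 0.43, 6.22 and 7.96 CPM in the day 22 samples and 97.2, 24.7 and 106 CPM in the day 43 samples (log2 fold change 3.96, s.e. 0.96, FDR = 0.00381), and it had a fold change of -0.10 with the ribosomal term. *Itln1*, the intelectin gene, was at 3.76, 2.9 and 8.63 CPM in the day 22 samples and 296, 13 and 30.6 CPM in the day 43 samples (log2 fold change 4.47, s.e. 0.97, FDR = 0.00172). *Wfdc2*, a protease inhibitor of mucosal surfaces, was at 153, 110.2 and 125 CPM in the day 22 samples and 288, 522 and 345 CPM in the day 43 samples (log2 fold change 1.57, s.e. 0.34, FDR = 0.0017). *Itln1* was highest in day 43 replicate 1 by far, and its fold change without that sample was 2.09, FDR = 0.0409. *Wfdc2* was highest in replicate 2. With the length trend removed *Wfdc2* did not pass (0.80, FDR = 0.0781). Without day 43 replicate 1 as well, neither *Itln1* (1.33, FDR = 0.18) nor *Wfdc2* (0.86, FDR = 0.115) passed.

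The 3 fallen members were *Duox2*, *Lypd8* and *Pigr*, the receptor that carries IgA across the epithelium. *Pigr*, named here after its values were seen, had 3076, 1152 and 1584.5 CPM at day 22 and 782, 437 and 525 CPM at day 43 (log2 fold change -1.74, FDR = 0.00425). *Duox2*, an enzyme that makes hydrogen peroxide at the mucosal surface, was at 165, 129 and 144 CPM in the day 22 samples and 47.1, 46.1 and 75 CPM in the day 43 samples (log2 fold change -1.38, s.e. 0.33, FDR = 0.00322). With the length trend removed and without day 43 replicate 1, *Duox2* did not pass (-0.81, FDR = 0.165). *Lypd8*, which keeps flagellated bacteria away from the colonic epithelium and was the most abundant gene of the list, had 7709 to 10285 CPM at day 22 and 2807 to 5282 CPM at day 43 (log2 fold change -1.15, s.e. 0.41, FDR = 0.0372, not called without day 22 replicate 1, day 22 replicate 3, day 43 replicate 1 or day 43 replicate 2). *Saa1*, an acute-phase gene, had 1229 to 1695 CPM at day 22 and 1078 to 1672 CPM at day 43 (log2 fold change -0.03, FDR = 0.977) and did not pass.

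Of 13 genes of matrix metalloproteinases and their inhibitors 4 rose and 0 fell, where 18% and 15.7% of all genes did (median log2 fold change 0.35). Without day 43 replicate 1, 4 rose and 0 fell, or 2 rose and 0 fell with the length trend removed as well. With the trend kept, the numbers risen and fallen became 2 and 0 without day 22 replicate 1 and 3 and 1 without day 43 replicate 2. *Mmp7*, the matrilysin of injured and neoplastic epithelium, was at 9.4, 20.5 and 39.1 CPM in the day 22 samples and 2504, 124 and 309 CPM in the day 43 samples (log2 fold change 5.41, s.e. 1.13, FDR = 0.00132). *Mmp12*, the elastase of macrophages, was at 1.45, 2.4 and 4.44 CPM in the day 22 samples and 80.8, 12.2 and 15.8 CPM in the day 43 samples (log2 fold change 3.71, s.e. 0.79, FDR = 0.00146). Both were highest in day 43 replicate 1, and their fold changes without it were 3.23, FDR = 0.0127 and 2.33, FDR = 0.0175. The inhibitor gene *Timp1* had 4.3 to 22.8 CPM at day 22 and 20.8 to 68.4 CPM at day 43 (log2 fold change 1.61, s.e. 0.55, FDR = 0.0269, not called without day 22 replicate 1, day 43 replicate 2 or day 43 replicate 3). *Timp1* did not pass with the length trend removed (0.88, FDR = 0.176), nor without day 43 replicate 1 as well (1.18, FDR = 0.11). *Timp2* had 201 to 273 CPM at day 22 and 114 to 302 CPM at day 43 (log2 fold change -0.30, FDR = 0.551).

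Of 12 prostaglandin and lipoxygenase genes, 4 rose and 0 fell, where 18% and 15.7% of all genes did. The numbers risen and fallen became 1 and 0 without day 22 replicate 1 and 2 and 0 without day 22 replicate 2 or day 43 replicate 1. With the length trend removed 4 rose and 0 fell, and 1 rose and 1 fell without day 43 replicate 1 as well. *Alox5ap*, which the leukotriene pathway of myeloid cells requires, was at 7.84, 33.2 and 31.1 CPM in the day 22 samples and 38.4, 305 and 90.2 CPM in the day 43 samples (log2 fold change 2.59, s.e. 0.59, FDR = 0.00247). *Alox12*, a lipoxygenase of platelets and squamous epithelium, had 1.4 to 3.77 CPM at day 22 and 9.92 to 24.4 CPM at day 43 (log2 fold change 2.47, s.e. 0.69, FDR = 0.00926, not called without day 22 replicate 1). *Ptgs2*, the inducible cyclooxygenase, had 5.11, 19.9 and 109 CPM at day 22 and 72.1, 76.8 and 132 CPM at day 43, and its wide ranges did not pass (log2 fold change 1.06, FDR = 0.279).

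Genes of absorptive colonocytes were lower at day 43. Of 23 tested, 0 rose and 11 fell, where 18% and 15.7% of all genes did (median log2 fold change -1.43, and -0.86 with the ribosomal term). Without day 43 replicate 1, 8 fell, and 8 fell without it and with the length trend removed. A day 43 range below the day 22 range was found for 13 genes, as for 20.7% of all genes. The numbers risen and fallen became 0 and 5 without day 22 replicate 1 and 1 and 11 without day 43 replicate 3. The stratified epithelium sum was higher in the same day 43 samples, and its part in the fall was not tested. *Mep1a*, a brush-border metalloprotease (chr17:43474324-43502812, minus strand, GRCm38), was at 96.3, 39.8 and 47.4 CPM in the day 22 samples and 7.18, 9.58 and 9.49 CPM in the day 43 samples (log2 fold change -2.81, s.e. 0.52, FDR = 0.000602). *Scnn1a*, the α-subunit of the epithelial sodium channel, was at 68, 33.8 and 49.2 CPM in the day 22 samples and 3.76, 17.5 and 15.6 CPM in the day 43 samples (log2 fold change -2.04, s.e. 0.43, FDR = 0.00135). In both cases the highest day 43 sample was below the lowest day 22 sample.

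*Slc26a2*, a sulfate transporter, was at 487, 118 and 183 CPM in the day 22 samples and 74.6, 42.8 and 48.3 CPM in the day 43 samples (log2 fold change -2.25, s.e. 0.48, FDR = 0.00146). *Cdhr2*, a protocadherin that links brush-border microvilli, was at 202, 126 and 146 CPM in the day 22 samples and 21.7, 46.7 and 51.1 CPM in the day 43 samples (log2 fold change -1.99, s.e. 0.46, FDR = 0.00246). Day 22 replicate 1 was the highest of the 6 samples for these 4 genes, *Mep1a* to *Cdhr2*. The most abundant members of the list were *Clca4b*, with 414 to 1048 CPM at day 22 and 228 to 446 CPM at day 43 (log2 fold change -1.10, FDR = 0.246), and *Krt20*, a keratin of surface colonocytes, with 412 to 591 CPM at day 22 and 191 to 277 CPM at day 43 (log2 fold change -1.15, FDR = 0.0988), and neither passed. The summed level was 5195, 2895 and 3886 summed CPM at day 22 and 1688, 1378 and 1663 at day 43.

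The goblet cell list fell in part. Of 17 genes, 2 rose and 8 fell, where 18% and 15.7% of all genes did (median log2 fold change -1.02, and -0.89 with the ribosomal term). The numbers risen and fallen became 0 and 4 without day 22 replicate 1 and 0 and 8 without day 22 replicate 2. They became 1 and 6 without day 43 replicate 1 and 1 and 8 without day 43 replicate 3. With the length trend removed 0 rose and 9 fell, and 0 rose and 7 fell without day 43 replicate 1 as well. *Best2*, a bicarbonate channel of colonic goblet cells, was at 85.3, 35 and 39.2 CPM in the day 22 samples and 6.25, 14.1 and 16.5 CPM in the day 43 samples (log2 fold change -2.12, s.e. 0.37, FDR = 0.000429). *Atoh1*, the transcription factor that commits cells to the secretory lineage, was at 43.3, 16.1 and 22.6 CPM in the day 22 samples and 9.73, 7.76 and 9.65 CPM in the day 43 samples (log2 fold change -1.60, s.e. 0.38, FDR = 0.00324). *Creb3l1*, a transcription factor of secretory cells, was at 171, 80.8 and 111 CPM in the day 22 samples and 4.32, 38 and 27.9 CPM in the day 43 samples (log2 fold change -2.37, s.e. 0.60, FDR = 0.00507). Each of these genes had separate ranges, with the steepest drop of *Creb3l1* in day 43 replicate 1. *Sytl2*, of the granule-docking family, had 53.4 to 148 CPM at day 22 and 23.8 to 49 CPM at day 43 (log2 fold change -1.35, s.e. 0.35, FDR = 0.00545, not called without day 22 replicate 1).

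The most abundant members went different ways. *Spink4*, a protease inhibitor of goblet cells, was at 732, 559.8 and 893 CPM in the day 22 samples and 1761, 1423 and 2462 CPM in the day 43 samples (log2 fold change 1.37, s.e. 0.43, FDR = 0.0192, not called without day 22 replicate 1, day 22 replicate 2 or day 43 replicate 3). Its fold change was -0.56 with the ribosomal term. It was 0.71 (FDR = 0.169) with the length trend removed and 0.26 (FDR = 0.691) without day 43 replicate 1 as well. *Zg16*, which encodes a lectin of the mucus layer, had 991 to 2823 CPM at day 22 and 474 to 1162 CPM at day 43 (log2 fold change -1.02, FDR = 0.28) and did not pass. With the length trend removed *Zg16* passed (-1.92, FDR = 0.0431), but not without day 43 replicate 1 as well (-1.76, FDR = 0.143). The summed level overlapped between the days, with 10210.1, 4378 and 6566 summed CPM at day 22 and 5231, 4856 and 7742 at day 43.

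The other epithelial lists changed in few members. Of 17 enteroendocrine genes 2 rose and 2 fell (0 to 1 and 1 to 3 with 1 sample left out), where 18% and 15.7% of all genes did. *Tph1*, the enzyme of gut serotonin synthesis, was at 25.4, 9.02 and 8.68 CPM in the day 22 samples and 2.73, 2.84 and 3.00 CPM in the day 43 samples (log2 fold change -2.33, s.e. 0.52, FDR = 0.00205), and the hormone gene *Cck* had 0.917 to 1.24 CPM at day 22 and 1.77 to 3.27 CPM at day 43 (log2 fold change 1.30, s.e. 0.50, FDR = 0.0477, not called without day 22 replicate 1, day 22 replicate 2, day 22 replicate 3, day 43 replicate 2 or day 43 replicate 3). The abundant hormone gene *Pyy* had 60.9 to 131 CPM at day 22 and 39.8 to 109.8 CPM at day 43 and did not pass (log2 fold change -0.25, FDR = 0.71). Nor did the prohormone-processing gene *Cpe*, with 54.1 to 97.2 CPM at day 22 and 46.3 to 77.1 CPM at day 43 (log2 fold change -0.38, FDR = 0.554).

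Of 9 tuft cell genes 0 rose and 2 fell (0 to 1 and 0 to 3 with 1 sample left out). *Plcg2*, a phospholipase, had 20.6 to 30.3 CPM at day 22 and 7.62 to 18.4 CPM at day 43 (log2 fold change -1.05, s.e. 0.35, FDR = 0.0269, not called without day 22 replicate 1, day 22 replicate 3, day 43 replicate 1 or day 43 replicate 3). *Dclk1*, the kinase that marks tuft cells, had 13.5 to 14.8 CPM at day 22 and 4.39 to 10.8 CPM at day 43 (log2 fold change -1.06, s.e. 0.32, FDR = 0.0146, not called without day 43 replicate 1 or day 43 replicate 3), and its fold change with the ribosomal term was 0.01. Of 10 pan-epithelial genes 0 rose and 1 fell (0 and 0 to 1 with 1 sample left out). The lectin gene *Lgals4* had 2272 to 3720.5 CPM at day 22 and 1952 to 3958 CPM at day 43 (log2 fold change 0.09, FDR = 0.882), and the simple-epithelium keratin gene *Krt8* had 1815 to 3035 CPM at day 22 and 1096 to 1773 CPM at day 43 (log2 fold change -0.95, FDR = 0.0843). These abundant genes did not pass and were high in all 6 samples, so that the tissue named in the labels was present.

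Of 9 claudin genes tested 2 rose and 1 fell (0 to 1 and 0 to 2 with 1 sample left out), where 18% and 15.7% of all genes did. *Cldn4*, a sealing claudin, was at 38, 88.6 and 119 CPM in the day 22 samples and 434, 252 and 406 CPM in the day 43 samples (log2 fold change 2.15, s.e. 0.64, FDR = 0.0136, not called without day 22 replicate 1). *Cldn2*, which forms cation pores, was at 88.6, 64.9 and 65.7 CPM in the day 22 samples and 37, 35.4 and 38.3 CPM in the day 43 samples (log2 fold change -0.99, s.e. 0.29, FDR = 0.012, not called without day 22 replicate 1). Their ranges were separate in opposite directions, while the more abundant members did not pass. *Cldn7* had 531 to 650.2 CPM at day 22 and 545 to 1138 CPM at day 43 (log2 fold change 0.57, FDR = 0.246), and *Cldn3* had 342 to 489 CPM at day 22 and 181 to 352 CPM at day 43 (log2 fold change -0.77, FDR = 0.105).

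Of 20 xenobiotic metabolism genes 2 rose and 5 fell, where 18% and 15.7% of all genes did. The numbers risen and fallen became 1 and 3 without day 22 replicate 1, 1 and 5 without day 22 replicate 2 or day 43 replicate 1 or day 43 replicate 3 and 2 and 8 without day 43 replicate 2. The cytochrome P450 gene *Cyp2s1* was at 64.8, 28.2 and 32.9 CPM in the day 22 samples and 4.07, 8.03 and 7.34 CPM in the day 43 samples (log2 fold change -2.70, s.e. 0.44, FDR = 0.000303). *Cyp3a13*, of the family that clears many drugs, was at 128, 40.5 and 36.7 CPM in the day 22 samples and 25.1, 19.8 and 13.7 CPM in the day 43 samples (log2 fold change -1.81, s.e. 0.41, FDR = 0.00234). Both were highest in day 22 replicate 1. *Cyp2d26* had 3.06 to 6.82 CPM at day 22 and 0.932 to 2.2 CPM at day 43 (log2 fold change -1.66, s.e. 0.44, FDR = 0.00707). In contrast, *Gsta4*, a glutathione transferase that clears lipid peroxidation products, was at 11.3, 21.6 and 26.4 CPM in the day 22 samples and 99.5, 146 and 76.4 CPM in the day 43 samples (log2 fold change 2.44, s.e. 0.64, FDR = 0.00623). The most abundant genes of this list did not pass. The glucuronosyltransferase gene *Ugt2b34* had 112 to 275 CPM at day 22 and 57.8 to 221 CPM at day 43 (log2 fold change -0.54, FDR = 0.402), and the sulfotransferase gene *Sult1b1* had 148 to 211 CPM at day 22 and 104 to 141 CPM at day 43 (log2 fold change -0.60, FDR = 0.246).

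The calls on Wnt target and stem cell genes depended on 1 sample. Of 25 tested, 13 rose and 1 fell, where 18% and 15.7% of all genes did (median log2 fold change 1.11). But 1 rose and 1 fell without day 43 replicate 1 (median 0.13). With the length trend removed 14 rose and 0 fell, and 2 rose and 0 fell without day 43 replicate 1 as well. *Wif1*, a secreted Wnt inhibitor that Wnt signals induce (chr10:121033960-121100650, plus strand, GRCm38), was at 2.31, 2.9 and 9.04 CPM in the day 22 samples and 577, 17.4 and 14.2 CPM in the day 43 samples (log2 fold change 5.41, s.e. 1.14, FDR = 0.00136, not called without day 43 replicate 1), and its fold change was 1.73, FDR = 0.07 without day 43 replicate 1. *Lgr5*, the receptor that marks crypt stem cells, was at 6.13, 3.62 and 3.67 CPM in the day 22 samples and 102, 6.1 and 9.7 CPM in the day 43 samples (log2 fold change 3.14, s.e. 0.80, FDR = 0.00532, not called without day 43 replicate 1). *Notum*, a secreted Wnt deacylase, was at 1.24, 3.16 and 5.68 CPM in the day 22 samples and 189.7, 9.42 and 14.4 CPM in the day 43 samples (log2 fold change 4.40, s.e. 1.14, FDR = 0.00576, not called without day 43 replicate 1). Day 43 replicate 1 stood far above the other 5 samples for these genes, and the other day 43 samples were still above every day 22 sample except for *Lgr5*.

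*Sp5*, a transcription factor gene that Wnt signals switch on, was at 0.269, 1.43 and 2.02 CPM in the day 22 samples and 48.4, 3.00 and 6.33 CPM in the day 43 samples (log2 fold change 3.95, s.e. 0.99, FDR = 0.00466, not called without day 43 replicate 1). *Smoc2*, a matrix protein gene of stem cells, was at 46.3, 55.2 and 36.9 CPM in the day 22 samples and 262, 66 and 73 CPM in the day 43 samples (log2 fold change 1.54, s.e. 0.38, FDR = 0.00421, not called without day 43 replicate 1). Summed over the list the level was 466, 492 and 511 summed CPM at day 22 and 2569.8, 538 and 589 at day 43, so that day 43 replicate 1 alone reached the 1550.0 to 2314 of the day 70 samples. *Olfm4*, a crypt base gene and the 1 gene of the list that rose without that sample, was at 0.161, 0.509 and 0.413 CPM in the day 22 samples and 2.83, 6.37 and 4.66 CPM in the day 43 samples (log2 fold change 3.65, s.e. 0.93, FDR = 0.00506). *Ephb2*, a receptor that Wnt signals keep high in the crypt base, was at 44.3, 34.3 and 44.6 CPM in the day 22 samples and 14, 15.7 and 21 CPM in the day 43 samples (log2 fold change -1.28, s.e. 0.36, FDR = 0.00998). Its fold change was -0.18 with the ribosomal term. It did not pass with the length trend removed (-0.74, FDR = 0.173), nor without day 43 replicate 1 as well (-0.57, FDR = 0.409). *Cd44*, the most abundant member, had 56.6 to 109.6 CPM at day 22 and 138 to 222 CPM at day 43 (log2 fold change 0.99, s.e. 0.33, FDR = 0.0273, not called without day 22 replicate 1, day 22 replicate 2 or day 43 replicate 1). With the length trend removed and without day 43 replicate 1 *Cd44* was called (log2 fold change 1.12, FDR = 0.0437).

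Of 20 genes of the fetal-like regenerative programme of injured epithelium 7 rose and 0 fell, where 18% and 15.7% of all genes did. The median log2 fold change was 0.57, and 0.36 with the ribosomal term, and 6 rose without day 43 replicate 1. With the length trend removed 5 rose and 1 fell, and 3 rose and 0 fell without replicate 1 as well (median log2 fold change 0.17). *Anxa1*, which encodes annexin A1, was at 271, 409 and 558 CPM in the day 22 samples and 1525, 2541 and 1311 CPM in the day 43 samples (log2 fold change 2.12, s.e. 0.54, FDR = 0.00521). *Il33*, the alarmin gene, was at 6.88, 26.6 and 20.4 CPM in the day 22 samples and 44.9, 81.6 and 53.6 CPM in the day 43 samples (log2 fold change 1.74, s.e. 0.47, FDR = 0.00723). *Tnfrsf12a*, the receptor of TWEAK, was at 18.9, 43.5 and 44.8 CPM in the day 22 samples and 149, 82.4 and 199 CPM in the day 43 samples (log2 fold change 2.00, s.e. 0.51, FDR = 0.00482). The 3 genes had separate ranges. With the length trend removed and without day 43 replicate 1, *Tnfrsf12a* did not pass (log2 fold change 1.13, FDR = 0.143). *S100a6*, the most abundant with *Anxa1*, had 1434 to 1681 CPM at day 22 and 3136 to 4835 CPM at day 43 (log2 fold change 1.27, s.e. 0.34, FDR = 0.00714), and its fold change was 0.40 (FDR = 0.432) with the length trend removed and without replicate 1.

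Of 26 cell cycle genes 5 rose and 3 fell, where 18% and 15.7% of all genes did (median log2 fold change 0.36). The numbers risen and fallen became 0 and 3 without day 22 replicate 1 and 1 and 3 without day 43 replicate 1. With the length trend removed 4 rose and 2 fell, and 1 rose and 1 fell without day 43 replicate 1 as well. *Plk1*, the mitotic kinase, was at 47.3, 32.8 and 39 CPM in the day 22 samples and 9.45, 15.1 and 22.4 CPM in the day 43 samples (log2 fold change -1.35, s.e. 0.32, FDR = 0.00308). *Mki67*, the proliferation marker, was at 62.7, 42.9 and 55.1 CPM in the day 22 samples and 26.7, 31.5 and 24.1 CPM in the day 43 samples (log2 fold change -0.97, s.e. 0.25, FDR = 0.00556), and *Foxm1*, a transcription factor of the mitotic genes, had 11.3 to 15.4 CPM at day 22 and 2.8 to 8.08 CPM at day 43 (log2 fold change -1.19, s.e. 0.33, FDR = 0.00885). With the length trend removed *Mki67* did not pass (log2 fold change -0.43, FDR = 0.248). Without day 43 replicate 1 as well, *Mki67* had -0.36 (FDR = 0.451), *Foxm1* -0.59 (FDR = 0.19) and *Plk1* -1.31 (FDR = 0.0147). *Birc5*, which encodes survivin, went the other way with 13.1 to 34 CPM at day 22 and 49.2 to 64.9 CPM at day 43 (log2 fold change 1.27, s.e. 0.37, FDR = 0.0111, not called without day 22 replicate 1). The abundant replication genes were highest in day 43 replicate 1. *Pcna*, the sliding clamp, was at 72.5, 95.1 and 114 CPM in the day 22 samples and 398, 126 and 158 CPM in the day 43 samples (log2 fold change 1.28, s.e. 0.37, FDR = 0.0112, not called without day 22 replicate 1 or day 43 replicate 1). *Mcm7*, a helicase subunit, was at 34.5, 38 and 47.9 CPM in the day 22 samples and 68.8, 39.8 and 48.2 CPM in the day 43 samples and did not pass (log2 fold change 0.38, FDR = 0.294).

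Of 10 genes of EGFR ligands and ERBB receptors 1 rose and 2 fell (0 to 1 and 1 to 3 with 1 sample left out), where 18% and 15.7% of all genes did. The receptor genes *Erbb3* and *Erbb2* fell, and they were the most abundant members. *Erbb3* was at 235, 108 and 150.0 CPM in the day 22 samples and 68.4, 37.6 and 46.2 CPM in the day 43 samples (log2 fold change -1.69, s.e. 0.37, FDR = 0.00178), and *Erbb2* was at 144, 84.2 and 99.2 CPM in the day 22 samples and 93.4, 40.0 and 46.5 CPM in the day 43 samples (log2 fold change -0.86, s.e. 0.31, FDR = 0.0392, not called without day 22 replicate 1, day 22 replicate 3, day 43 replicate 2 or day 43 replicate 3), with a fold change of 0.14 with the ribosomal term. Of 14 LXR target and oxysterol genes 0 rose and 3 fell (0 and 1 to 3 with 1 sample left out). The desaturase gene *Scd2* had 464 to 542 CPM at day 22 and 230.4 to 339 CPM at day 43 (log2 fold change -0.88, s.e. 0.31, FDR = 0.0363, not called without day 22 replicate 1, day 22 replicate 2, day 22 replicate 3, day 43 replicate 2 or day 43 replicate 3), and the lipoprotein gene *Apoe* had 876 to 1239.6 CPM at day 22 and 404 to 2337 CPM at day 43 (log2 fold change 0.42, FDR = 0.497).

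**Figure D4:**
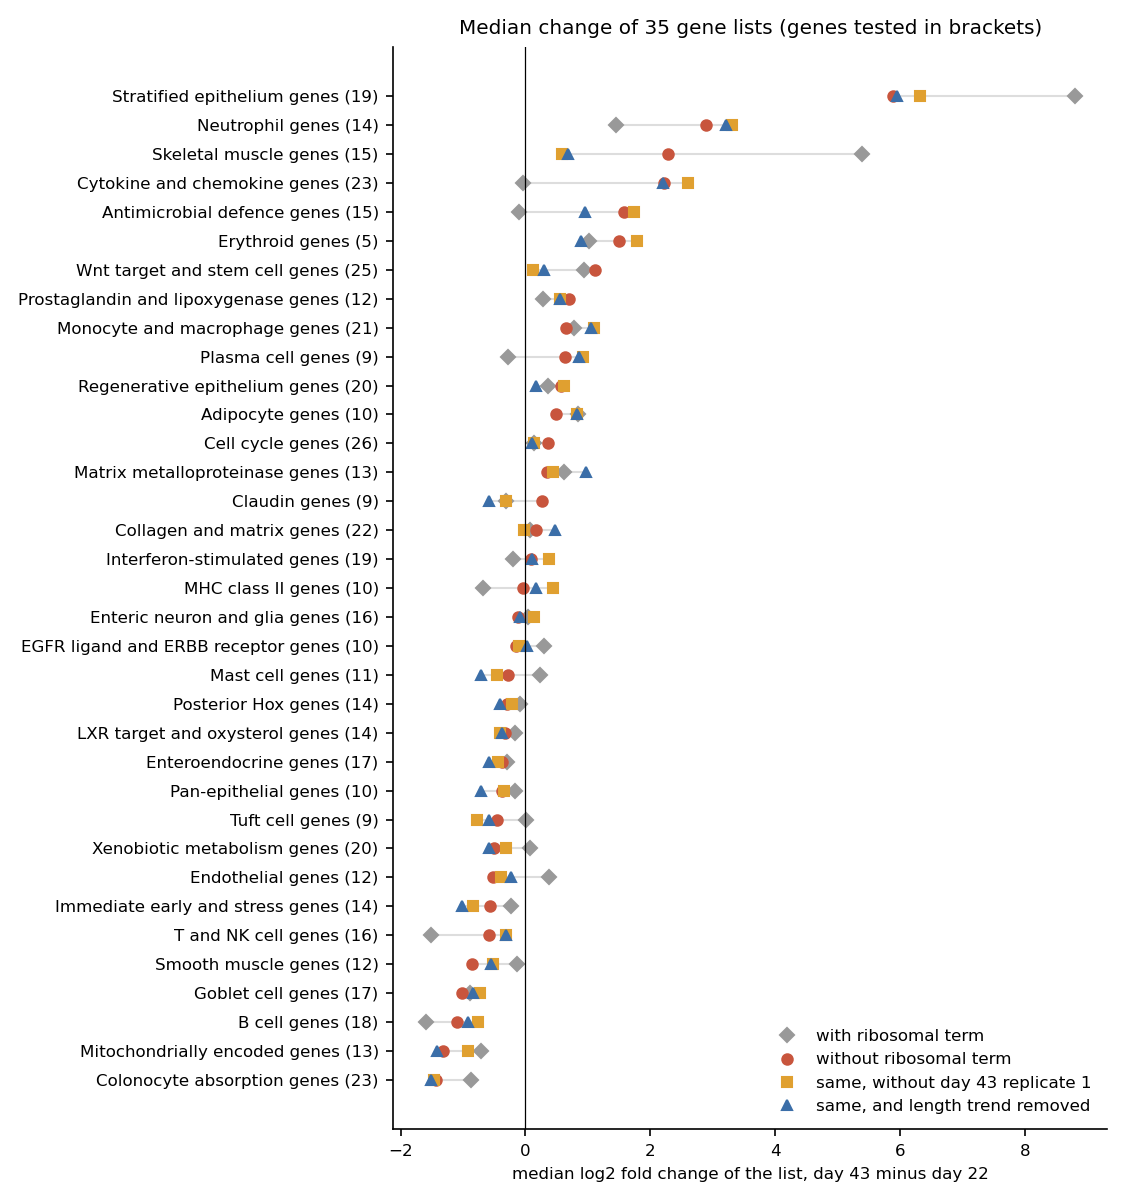
Median log2 fold change of each of 35 lists (horizontal axis, number of genes tested in brackets) in 4 fits: with the ribosomal term (grey), without it (red), without it and without day 43 replicate 1 (yellow), and with the length trend removed as well (blue). Stratified epithelium lies at 5.89 to 8.79, the Wnt list moves from 1.11 to 0.13 when replicate 1 is left out, and the cytokine list moves from 2.22 to -0.04 with the ribosomal term.

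Of 18 B cell genes 0 rose and 1 fell (median log2 fold change -1.10), and 11 had a day 43 range below the day 22 range, a pattern that 20.7% of all genes showed. *Cd79a*, a chain of the B cell receptor complex, had 86.3, 189 and 137 CPM at day 22 and 12.4, 111 and 78.6 CPM at day 43 (log2 fold change -1.04, FDR = 0.317), and *Ighm* had 151, 367 and 188 CPM at day 22 and 234, 296 and 729 CPM at day 43 (log2 fold change 0.84, FDR = 0.357). Day 43 replicate 1 held the lowest summed B cell level of the 6 samples, with 722, 1428 and 949 summed CPM at day 22 and 366, 898 and 1177 at day 43. With 1 sample left out 0 fell, except that 5 fell without day 43 replicate 2.

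Plasma cell genes numbered 9, of which 0 rose and 0 fell with a median log2 fold change of 0.63 that became -0.27 with the ribosomal term. *Jchain*, the joining chain of secreted IgA and IgM, was at 698, 1536 and 2285 CPM in the day 22 samples and 4644, 5480.2 and 14522 CPM in the day 43 samples, separate ranges that missed the threshold (log2 fold change 2.45, FDR = 0.0565), and *Igkc* had 1248, 2058 and 4097 CPM at day 22 and 2275, 7899.7 and 9885 CPM at day 43 (log2 fold change 1.44, FDR = 0.233). Of 16 T and NK cell genes 0 rose and 0 fell, with 12.3 to 51.6 CPM at day 22 and 36 to 91.1 CPM at day 43 for *Cd3d* (log2 fold change 1.01, FDR = 0.185) and 18.4 to 30.7 CPM at day 22 and 6.5 to 100.3 CPM at day 43 for *Ccl5* (log2 fold change 1.24, FDR = 0.24). *Ccl5* overlapped widely and was lowest in a day 43 sample. A *P* above the threshold does not show that these levels were alike.

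Of 10 MHC class II genes 0 rose and 0 fell, and of 19 interferon-stimulated genes 0 rose and 0 fell. *Cd74*, the invariant chain, had 1422, 1841 and 1674 CPM at day 22 and 165, 2173 and 1579.8 CPM at day 43 (log2 fold change -0.33, FDR = 0.678) and was low in day 43 replicate 1 alone. *H2-Ab1*, a class II chain, had 528, 770.5 and 684 CPM at day 22 and 355, 1237 and 1472 CPM at day 43 (log2 fold change 0.63, FDR = 0.291). *Gbp2*, a guanylate-binding protein gene, had 148 to 293 CPM at day 22 and 89.2 to 285 CPM at day 43 (log2 fold change -0.13, FDR = 0.878). None of these 3 passed.

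Of 11 mast cell genes 1 rose and 1 fell (0 to 2 and 0 to 1 with 1 sample left out). *Kit*, the stem cell factor receptor of mast cells and of pacemaker cells, was at 30.5, 20.3 and 19.4 CPM in the day 22 samples and 16.9, 14.9 and 7.5 CPM in the day 43 samples (log2 fold change -0.83, s.e. 0.23, FDR = 0.00808, not called without day 22 replicate 1), and its fold change was 0.05 with the ribosomal term. The protease gene *Mcpt2*, high in day 43 replicate 1 alone, had 8.71, 8.87 and 15.7 CPM at day 22 and 209, 13.7 and 20.6 CPM at day 43 (log2 fold change 2.87, s.e. 0.96, FDR = 0.0255, not called without day 22 replicate 1, day 22 replicate 2 or day 43 replicate 1), and *Hdc*, the enzyme of histamine synthesis, had 2.58 to 50.9 CPM at day 22 and 8.8 to 67.2 CPM at day 43 (log2 fold change 0.82, FDR = 0.471).

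Of 22 collagen and matrix genes 2 rose and 5 fell, where 33.7% of all genes were called in either direction (0 and 4 without day 22 replicate 1, 7 and 4 without day 22 replicate 2, 2 and 2 without day 22 replicate 3, 0 and 1 without day 43 replicate 1 and 2 and 3 without day 43 replicate 3). Without day 43 replicate 2 the numbers were 2 and 7. The median longest transcript of this list has 5912 bases, and with the length trend removed 6 rose and 2 fell. Without day 43 replicate 1 as well, 3 rose and 0 fell. *Col6a2*, a chain of collagen VI, was at 108, 136 and 119.5 CPM in the day 22 samples and 12.5, 74.2 and 34.4 CPM in the day 43 samples (log2 fold change -1.59, s.e. 0.44, FDR = 0.00854). With the length trend removed and without day 43 replicate 1, *Col6a2* did not pass (-0.88, FDR = 0.0884). *Col3a1*, the chain of collagen III, had 648 to 2084 CPM at day 22 and 2449 to 3274 CPM at day 43 (log2 fold change 0.97, FDR = 0.0557), and the matrix glycoprotein gene *Sparc* had 573 to 1608 CPM at day 22 and 827 to 1214 CPM at day 43 (log2 fold change -0.08, FDR = 0.87). Of 12 smooth muscle genes 0 rose and 1 fell (0 and 0 to 5 with 1 sample left out, the 5 without day 43 replicate 2). *Tagln*, an actin-binding protein gene of smooth muscle, had 1829 to 4429.9 CPM at day 22 and 2373 to 5112 CPM at day 43 (log2 fold change 0.48, FDR = 0.433), and *Des*, the desmin gene, had 904 to 2216 CPM at day 22 and 366 to 1262 CPM at day 43 (log2 fold change -0.87, FDR = 0.228).

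Of 16 enteric neuron and glia genes 0 rose and 0 fell (0 and 3 without day 43 replicate 2), with 21.9 to 53.7 CPM at day 22 and 75.8 to 79.3 CPM at day 43 for the neuropeptide gene *Vip* (log2 fold change 0.92, FDR = 0.111) and 12.5 to 16.1 CPM at day 22 and 11.1 to 39 CPM at day 43 for *Stmn2* (log2 fold change 0.56, FDR = 0.321). Of 12 endothelial genes 1 rose and 1 fell (0 to 1 and 1 to 5 with 1 sample left out, the 5 without day 43 replicate 2). *Pecam1*, an adhesion molecule of endothelium and leukocytes, was at 100.3, 87.3 and 100.3 CPM in the day 22 samples and 21.6, 63 and 38.8 CPM in the day 43 samples (log2 fold change -1.22, s.e. 0.29, FDR = 0.00322), and the vessel gene *Plvap* had 75.5 to 99.7 CPM at day 22 and 8.86 to 94 CPM at day 43 (log2 fold change -0.74, FDR = 0.205).

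Markers of neighbouring tissues were read as well. Of 15 skeletal muscle genes 0 rose and 0 fell, with a median log2 fold change of 2.28 that was 0.59 without day 43 replicate 1, which had the highest summed level of the 6 samples (34.7, 54.8 and 21.4 summed CPM at day 22 and 212, 60.1 and 42.4 at day 43). *Ckm*, the muscle creatine kinase, had 8.01 to 27.5 CPM at day 22 and 11.1 to 59.7 CPM at day 43 (log2 fold change 0.99, FDR = 0.6), and *Tnni2*, a fast troponin gene, had 1.13 to 5.66 CPM at day 22 and 7.6 to 31.2 CPM at day 43 (log2 fold change 2.51, FDR = 0.215). Of 10 adipocyte genes 0 rose and 1 fell, the lipase gene *Pnpla2*, with 79.4 to 90.9 CPM at day 22 and 20.3 to 67 CPM at day 43 (log2 fold change -0.98, s.e. 0.27, FDR = 0.00757), while *Fabp4* had 47.2 to 64.1 CPM at day 22 and 69.2 to 105 CPM at day 43 (log2 fold change 0.68, FDR = 0.409). Of 5 erythroid genes 1 rose and 0 fell (0 to 1 and 0 with 1 sample left out). The globin genes did not pass and have near-identical copies between which counts may be split. *Hbb-bs* had 529 to 612 CPM at day 22 and 1247 to 2587 CPM at day 43 (log2 fold change 1.64, FDR = 0.0701), and *Hba-a2* had 104 to 135 CPM at day 22 and 156 to 574 CPM at day 43 (log2 fold change 1.31, FDR = 0.152).

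Of 14 posterior *Hox* genes, which mark position along the gut, 2 rose and 2 fell (0 to 2 and 1 to 3 with 1 sample left out). *Hoxb13*, a gene of the distal colon and rectum, had 186 to 338 CPM at day 22 and 101 to 178 CPM at day 43 (log2 fold change -0.91, s.e. 0.34, FDR = 0.0434, not called without day 22 replicate 1, day 22 replicate 3, day 43 replicate 1 or day 43 replicate 2). *Hoxd13* had 106 to 121 CPM at day 22 and 86.1 to 197 CPM at day 43 and did not pass (log2 fold change 0.25, FDR = 0.551), and *Hoxb6* had 1.55 to 2.9 CPM at day 22 and 5.5 to 6.16 CPM at day 43 (log2 fold change 1.48, s.e. 0.51, FDR = 0.0306, not called without day 22 replicate 1, day 22 replicate 3 or day 43 replicate 3).

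**Figure D5:**
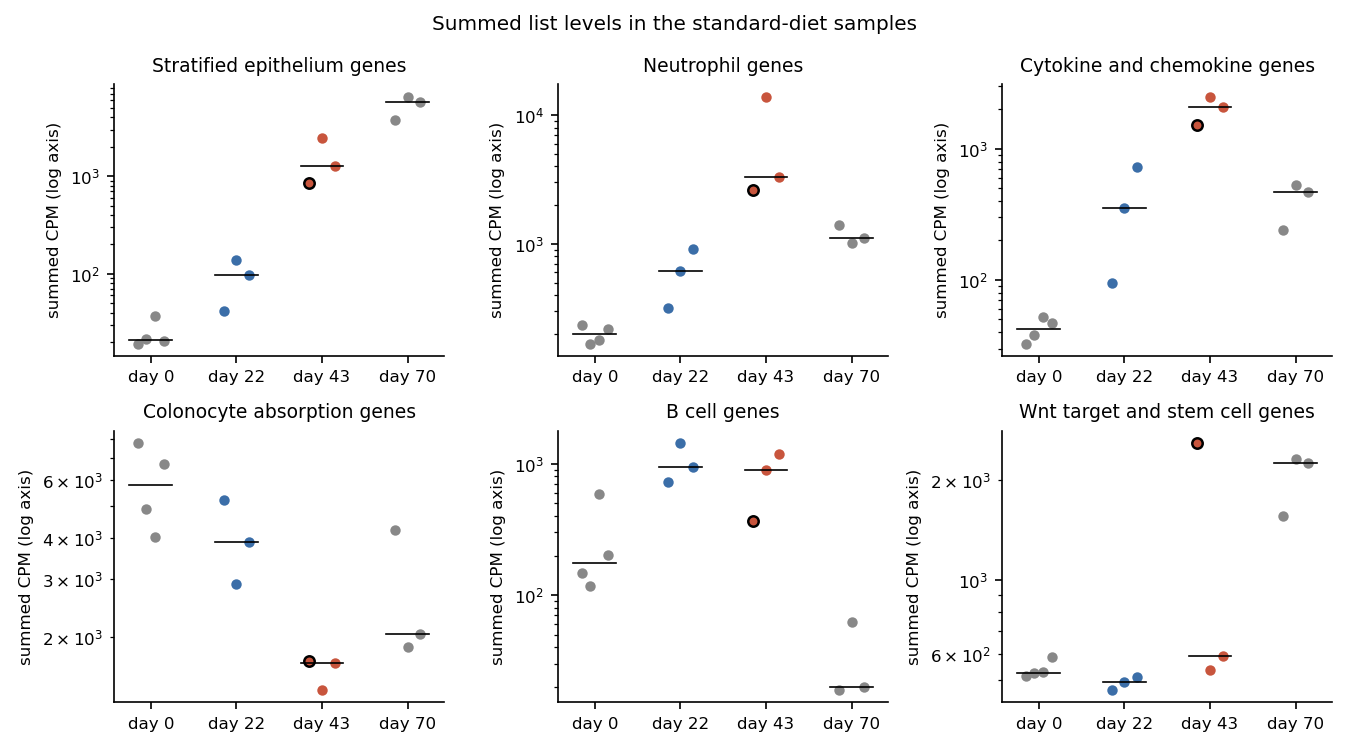
Summed CPM (log axis) of 6 lists in every standard-diet sample of days 0, 22, 43 and 70; points are samples, bars are medians and the black ring marks day 43 replicate 1. The stratified epithelium sum is higher at each later day, the neutrophil and cytokine sums are highest at day 43, and the Wnt sum at day 43 reaches the level of day 70 in replicate 1 only.

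Mitochondrially encoded and nuclear-encoded genes of respiration moved apart. Of 13 mitochondrially encoded genes 0 rose and 7 fell (median log2 fold change -1.33), and 7 fell without day 43 replicate 1 and with the length trend removed. The numbers risen and fallen became 0 and 3 without day 22 replicate 1 or day 43 replicate 1, 0 and 4 without day 22 replicate 2 and 0 and 11 without day 43 replicate 2. The summed share of these genes was 12.5, 11.1 and 6.16% of the counts at day 22 and 1.94, 6.84 and 3.38% at day 43 (two-sided exact permutation *P* = 0.2). *mt-Nd4l* was at 1172, 768 and 486 CPM in the day 22 samples and 30.6, 134 and 124 CPM in the day 43 samples (log2 fold change -3.07, s.e. 0.55, FDR = 0.000458). *mt-Nd5*, like it a subunit gene of complex I, was at 4677, 4073 and 2368 CPM in the day 22 samples and 311, 1089 and 977 CPM in the day 43 samples (log2 fold change -2.23, s.e. 0.50, FDR = 0.00209). Day 43 replicate 1 was the lowest sample for both. *mt-Atp8*, of ATP synthase, had 164 to 345 CPM at day 22 and 22.3 to 107 CPM at day 43 (log2 fold change -1.86, s.e. 0.47, FDR = 0.00456). The most abundant genes encode subunits of cytochrome *c* oxidase. *mt-Co1* was at 45358, 39359.8 and 19951 CPM in the day 22 samples and 4859.9, 21321 and 15584 CPM in the day 43 samples (log2 fold change -1.33, s.e. 0.43, FDR = 0.0219, not called without day 22 replicate 1, day 22 replicate 2 or day 43 replicate 1). *mt-Co3* was at 13822, 12769 and 6759.5 CPM in the day 22 samples and 11140.2, 15286 and 6890.1 CPM in the day 43 samples and did not pass (log2 fold change -0.00, FDR = 0.998).

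Of 37 nuclear-encoded complex I genes, on the contrary, 30 rose and 0 fell (median 1.15), and 14 rose and 1 fell without day 43 replicate 1 and with the length trend removed. Mitochondrial ribosomal protein genes rose in 67 and fell in 1 of 78 cases (median 0.97), proteasome subunit genes in 29 and 0 of 39 (median 0.76), and cytosolic ribosomal protein genes in 73 and 0 of 83 (median 1.25). These families were chosen after the values were seen and have short transcripts, with medians of 1005, 1866, 1883 and 1059 bases against 3203 over all genes. With the ribosomal term their medians were 0.05, 0.12, 0.39 and -0.09. The value near 0 of the cytosolic ribosomal protein genes follows from the model, because the term is the count share of these same genes. Of 14 immediate early and stress genes 0 rose and 1 fell (0 to 1 and 0 to 2 with 1 sample left out). The transcription factor genes *Junb*, with 139 to 301 CPM at day 22 and 80.4 to 287 CPM at day 43 (log2 fold change 0.14, FDR = 0.812), and *Fos*, with 70.3 to 311 CPM at day 22 and 89.4 to 104 CPM at day 43 (log2 fold change -0.72, FDR = 0.39), did not pass.

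A group of 1016 genes higher (5.95%) and 995 genes lower (5.83%) at day 43 had separate ranges and passed in each of the 4 models without the ribosomal term, that is with and without day 43 replicate 1 and with and without the length trend. Among these the largest decreases at a mean level of 10 CPM or more in either group included *Il22ra1*, the receptor subunit through which interleukin-22 reaches the epithelium, which was at 38.7, 22.5 and 26.9 CPM in the day 22 samples and 1.15, 2.94 and 4.61 CPM in the day 43 samples (log2 fold change -3.36, s.e. 0.49, FDR = 0.000243). *Tgm3*, a transglutaminase, was at 685, 163 and 238 CPM in the day 22 samples and 6.4, 53.9 and 31.5 CPM in the day 43 samples (log2 fold change -3.57, s.e. 0.69, FDR = 0.000761). *Atp7a*, the copper exporter, was at 20.6, 11.6 and 14.2 CPM in the day 22 samples and 1.55, 1.12 and 1.5 CPM in the day 43 samples (log2 fold change -3.46, s.e. 0.42, FDR = 0.000219). Separate ranges were a condition for naming these genes and are no further support.

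*Tfcp2l1*, a transcription factor gene, had 103 to 289.7 CPM at day 22 and 8.92 to 24.2 CPM at day 43 (log2 fold change -3.41, s.e. 0.53, FDR = 0.000266). *Slc10a5*, of the bile acid carrier family, had 13.5 to 31.3 CPM at day 22 and 1.24 to 1.55 CPM at day 43 (log2 fold change -3.80, s.e. 0.58, FDR = 0.00026). *Ago1*, an argonaute gene of RNA silencing, had 16.6 to 20.7 CPM at day 22 and 0 to 1.18 CPM at day 43 (log2 fold change -5.71, s.e. 0.88, FDR = 0.00026). They too were named for large decreases with separate ranges, as were the genes that follow. *Rapgef6*, an activator of Rap GTPases, had 27.9 to 42.3 CPM at day 22 and 1.86 to 3.54 CPM at day 43 (log2 fold change -3.70, s.e. 0.53, FDR = 0.000243). *Pdpr*, a regulator of pyruvate dehydrogenase phosphatase, had 15.9 to 30.8 CPM at day 22 and 1.27 to 2.95 CPM at day 43 (log2 fold change -3.52, s.e. 0.52, FDR = 0.000243). *Foxd2*, a forkhead transcription factor gene, had 9.88 to 28.2 CPM at day 22 and 0.715 to 2.52 CPM at day 43 (log2 fold change -3.36, s.e. 0.65, FDR = 0.000734). *Igkv11-125*, an antibody variable gene whose counts can be shared with related genes, had 44.5, 0.56 and 3.15 CPM at day 22 and 0, 0.321 and 0.322 CPM at day 43 (log2 fold change -6.30, s.e. 1.77, FDR = 0.0103, not called without day 22 replicate 1).

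In the model with the ribosomal term, where no gene passed, the smallest *P* value among genes with higher levels at day 43 belonged to *Fat2*. *Fat2*, a giant protocadherin of squamous epithelium, was at 0.161, 0 and 0.258 CPM in the day 22 samples and 9.14, 13.3 and 3.27 CPM in the day 43 samples (log2 fold change 9.05, s.e. 1.98, unadjusted *P* = 0.00018, FDR = 0.633). Next came *Psca* (unadjusted *P* = 0.000211), *Trp63* (0.000224), *Tmprss11b* (0.000381) and *Lypd2*, with FDR values of 0.633, 0.633, 0.633 and 0.633. *Lypd2*, of the Ly6 family, had no count at day 22 and 2.89, 6.32 and 1.55 CPM in the day 43 samples, at least 66-fold higher on the floor of 3 counts. On the other side *Slc17a4*, an organic anion transporter gene, was at 49.6, 34 and 31.1 CPM in the day 22 samples and 10.7, 8.67 and 12.7 CPM in the day 43 samples (log2 fold change -2.69, s.e. 0.61, unadjusted *P* = 0.000265, FDR = 0.633). *Sord*, sorbitol dehydrogenase, had 94.1 to 167 CPM at day 22 and 41.8 to 69.4 CPM at day 43 (log2 fold change -1.51, s.e. 0.44, unadjusted *P* = 0.00249, FDR = 0.967), and did not overlap either. *Zfp551*, a zinc finger gene, had 0.878 to 1.56 CPM at day 22 and 0.107 to 0.161 CPM at day 43 (FDR = 0.967), *Myo1h*, a myosin gene, had 1.5 to 3.31 CPM at day 22 and 0.622 to 2.84 CPM at day 43 (FDR = 0.633), and the olfactory receptor gene *Olfr1512* had 0.484 to 1.32 CPM at day 22 and 0.0535 to 1.07 CPM at day 43 (FDR = 0.9). *Myo1h* and *Olfr1512* overlapped between the days, and none of the 10 genes passed.

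The same interval was measured on the GW3965 diet, in mice of cage B. There 39 genes rose (0.229%) and 6 fell (0.0352%) without the ribosomal term. Of the stratified epithelium list 5 rose and 0 fell (median log2 fold change 7.74, beside 5.89 on the standard diet). *Krt5* had 0.181 to 0.535 CPM at day 22 and 33.5 to 609.5 CPM at day 43 (FDR = 0.0405), *Krt13* had 0.679 to 1.6 CPM at day 22 and 34.6 to 989 CPM at day 43 (FDR = 0.0405), and *Trp63* had 0 to 0.0453 CPM at day 22 and 1.62 to 25.4 CPM at day 43 (FDR = 0.0405). Both diets thus had low squamous genes at day 22. *Psca* had 0 to 0 CPM at day 22 and 27.8 to 206 CPM at day 43 (FDR = 0.0405), and *Ppbp* had 0.16 to 0.498 CPM at day 22 and 58.6 to 538 CPM at day 43 (FDR = 0.0405). Of the colonocyte genes 0 rose and 0 fell on the GW3965 diet (median -0.39), and *Mep1a* had 13.6 to 23.5 CPM at day 22 and 15.8 to 26.1 CPM at day 43 (FDR = 0.991). Values past the threshold on 1 diet and not on the other are no difference between the diets.

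The difference itself, the change on the standard diet minus the change on the GW3965 diet, passed for 0 genes with the ribosomal term (723 genes at an unadjusted *P* below 0.05, 8 genes in DESeq2) and for 0 genes without it (2324 genes at an unadjusted *P* below 0.05). The smallest *P* value with the term belonged to *Slc17a4*, with a difference in log2 fold change of -2.94, s.e. 0.51, unadjusted *P* = 1.07e-05. On the GW3965 diet it had 7.51 to 9.74 CPM at day 22 and 9.8 to 17.6 CPM at day 43, where the standard diet had 31.1 to 49.6 CPM and 8.67 to 12.7 CPM. *Mrps18c*, a mitochondrial ribosomal protein gene, had 31.3 to 47.7 CPM at day 22 and 119 to 183 CPM at day 43 on the standard diet and 53.2 to 97.2 CPM at day 22 and 59 to 150.4 CPM at day 43 on the GW3965 diet (difference 0.75, s.e. 0.16, unadjusted *P* = 0.000154). *Fam83b* had 8.66 to 18.6 CPM at day 22 and 1.02 to 1.49 CPM at day 43 on the standard diet and 4.58 to 6.47 CPM at day 22 and 2.03 to 9.21 CPM at day 43 on the GW3965 diet (difference -2.09, s.e. 0.49, unadjusted *P* = 0.000357). *Fam171a1* had 25 to 30.5 CPM at day 22 and 8.24 to 12.2 CPM at day 43 on the standard diet and 16 to 18 CPM at day 22 and 12.4 to 24.1 CPM at day 43 on the GW3965 diet (difference -1.07, s.e. 0.25, unadjusted *P* = 0.000375). None of these differences passed, the smallest FDR being 0.182. *Rps12-ps3*, the other gene of the 5 with the smallest *P*, is a ribosomal protein pseudogene that shares sequence with its parent gene, and its counts are uncertain, with 0.0537, 0 and 0.723 CPM at day 22 and 2476, 0 and 1540.4 CPM at day 43 on the standard diet. Untreated standard-diet colon after 43 against 22 days of the diet, 2 samples each, gave 0 genes at FDR < 0.05 in edgeR's quasi-likelihood *F*-test and 961 at an unadjusted *P* below 0.05.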

How the data were processed

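RNA of colon tissue from 26 samples was sequenced with polyA selection and paired-end reads of 150 bases. The authors quantified transcripts with kallisto on GRCm38 and deposited estimated counts and TPM per transcript. A kallisto version is not given in the sources used here. Of 119414 transcripts 97.75% were matched to 35975 genes of GENCODE M21, their estimated counts were summed per gene and rounded to whole numbers, and the unmatched share was 0.615 to 0.999% of the counts. The deposited TPM values were not used. CPM values use library sizes scaled by TMM, while floors and count ratios use the unscaled totals of the genes tested. Kallisto shares reads between similar genes by likelihood, so that paralogs, pseudogenes and antibody genes are less certain.

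filterByExpr over 8 groups (minimum count 10, minimum total count 15) kept 17063 genes, which were scaled by TMM and fitted in edgeR 4.0.16 (R 4.3.3) with group and each library's percentage of ribosomal protein counts. The quasi-likelihood *F*-test was used with Benjamini–Hochberg adjustment at FDR < 0.05. It was also run on simulated counts that did not follow the ribosomal share. That run does not show how the term acts on the real counts. DESeq2 1.42.0 and limma 3.58.1 (voom) served as alternatives. DESeq2 left out 125 genes with the term and 109 without it, whose fits did not end within 100 iterations, because calls among them varied with the numerical library. This choice was made after the data were seen, and keeping those genes gave more calls. Other alternatives left out the ribosomal term or single samples, changed the filter or the scaling, or removed each library's trend (lowess, span 0.3) of log counts on transcript length. The settings without the term other than the plain model and the model without day 43 replicate 1, and the length fits, were added after the data were seen. Scripts ran in Python 3.11.15.

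The groups were taken from the sample titles. For 1 untreated sample the title and the diet label disagree, and the title was followed. The members and the 35 gene lists (547 genes, of which 533 were tested) were chosen with earlier results of these data known. Since no gene passed the main test, its named genes are the 5 of smallest *P* in each direction, and for each list the 2 of highest mean CPM. After the values were seen, up to 4 genes per list of smallest *P* among those called without the term both with and without day 43 replicate 1 were added, as were the 6 Wnt list genes of smallest *P*, the 10 largest fold changes in each direction among genes called in each model without the term, with separate ranges and a mean of 10 CPM or more in either group, and the symbol families. For genes without a count at day 22 a floor of 3 counts over the 3 libraries together was used. Such floors and the 95% exact intervals of count ratios cover counting error only. Chromosome positions are those of GENCODE M21 on GRCm38. One of the genes named by the rule is not reported here.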

Additional observations from a re-analysis of the deposited data

Results flagged for a closer look

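Among the 4 untreated standard-diet samples of day 0, 1 sample stood apart in the summed level of the stratified epithelium genes. The samples after 22 days of the diet had 19.3 and 21.3 summed CPM, and those after 43 days had 36.9 and 20.7. The gap of the highest sample to the next was 0.887 of the whole range, above the 95% critical value of Dixon's test for 4 samples. Of 10 list sums tested this was the 1 that stood apart, and chance alone marks about 1 group in 20. The 36.9 summed CPM lay below the 41.5 of the lowest day 22 sample.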

How the results depend on the processing

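With the ribosomal term, the number of genes that changed between day 43 and day 22 remained 0 under the DESeq2 size factors, no filter on low counts, a filter over 2 groups, limma voom, the split of the day 0 group and the model without the sample of conflicting labels. It was 23 with the likelihood ratio test, 9 with DESeq2 and 0 to 3 with 1 sample left out, reaching 3 without day 43 replicate 3. With the RNA integrity number as the term it was 1614, and in a fit of the 6 samples alone 1586. Without the term 5754 genes passed, 4773 without day 43 replicate 1, 3435, 4940 and 4861 without day 22 replicates 1, 2 and 3, and 6557 and 5159 without day 43 replicates 2 and 3. Also without the term, DESeq2 called 6385, voom 7297, and edgeR with DESeq2 size factors 5734 genes. Removal of the length trend left 5079 genes, or 2911 without day 43 replicate 1. The term itself widened the errors, and the cause of the lost calls was otherwise not tested. The replicate block called 0 genes with the term and 5950 without it. Deviations of samples with the same number correlated at 0.123, 0.137 and -0.0035, so the numbers were not taken to pair the samples, and replicates 1 and 2, but not replicate 3, correlated best with their own number. The number of genes whose change differed between the diets was 0 with the term, 8 with DESeq2 and 0 to 12 with 1 sample left out, the 12 without standard-diet day 43 replicate 2. The mitochondrially encoded share, read in place of the ribosomal share, differed by -5.862 percentage points. Without the ribosomal term, in the 6 samples alone, without the term and day 43 replicate 1, with the length trend removed, and with it removed without that replicate, *Reg3g* had log2 fold changes of 3.96, 3.94, 3.74, 3.83 and 3.51, opposite in sign to the model with the term. In the same order *Ccl7* had 3.06, 3.04, 3.31, 2.31 and 2.45, and *Cxcl1* had 2.96, 2.94, 3.00, 2.74 and 2.70. Opposite in sign to the model with the term under part of these settings were also *Spink4* (1.37, 1.35 and 1.42), *Dclk1* (-1.06), *Jchain* (2.42), *Kit* (-0.83, -1.04 with the RNA integrity number, -1.06, -0.52 and -0.72) and *Erbb2* (-0.86, -1.33 and -1.01). Of 3184 pairs of a named gene and a setting, 461 gained a call, 28 changed sign with a call, and 210 changed sign without one. Total counts were at least 18195345 per sample, and genes that reached about 10 counts in too few libraries were left untested. That filter ran over all 26 samples, so genes without a count at day 22 could be tested.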
